A study of Mus musculus with 12 samples.

Results

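The core circadian clock is described here by 10 genes: Per1, Per2, Per3, Cry1, Cry2, Arntl, Clock, Npas2, Nr1d1 and Nr1d2. Their probes were found by the gene name on the array or by the current symbol of the probe's transcript accession, which gave 18 of 41174 array features. All 10 were among the 19301 genes tested. Uteri of 12 adult ovariectomized mice of C57bl6/Jx129 background, at least 10 weeks old, were each profiled on 1 single-colour Agilent array. The mice fell into 4 groups of 3: wild type (WT) given saline, WT given estradiol (E2), EAAE given saline and EAAE given E2. EAAE mice carry, per the series title, an estrogen receptor alpha (product of Esr1) that is deficient in DNA binding. Mice of every group had rested for 10 to 14 days after removal of the ovaries, so ovarian hormones were cleared in controls too, then received 100 ul of saline or E2, and the uterus was taken 2 h later. The E2 dose, the hour of the day and the light schedule are not given in the sources used here, and each array is 1 whole uterus at 1 time, so a phase or an amplitude of a rhythm cannot be read from these data.

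The clock is a transcription loop that runs in nearly every tissue. BMAL1 (encoded by Arntl) pairs with CLOCK or its relative NPAS2 and activates genes through E-boxes, among them the Per and Cry genes, whose proteins come back to repress the pair. A second loop runs through REV-ERB alpha and beta (Nr1d1 and Nr1d2), nuclear receptors that repress Arntl at an element they share with the ROR receptors. The uterus holds such a clock, and Per1 and Per2 are also known as genes that acute signals, such as cyclic AMP, induce directly.

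The stretches of DNA just before the start sites are shown for 5 members whose levels differed between groups. Cry1 and Cry2 rose with E2 in WT, Nr1d1 and Per3 fell, and Per1 differed between genotypes under saline. Whether these stretches play a part in that was not tested. RefSeq promoters (GRCm38.p6) were matched for 9 of the 10 members, at 13 start sites. Per2 had no match, so no motif was searched before it. Each run is the 250 bases before the start, 5′ to 3′ along the gene, with every searched motif in capitals:
Per1 (chr11:69098699-69098948, plus strand): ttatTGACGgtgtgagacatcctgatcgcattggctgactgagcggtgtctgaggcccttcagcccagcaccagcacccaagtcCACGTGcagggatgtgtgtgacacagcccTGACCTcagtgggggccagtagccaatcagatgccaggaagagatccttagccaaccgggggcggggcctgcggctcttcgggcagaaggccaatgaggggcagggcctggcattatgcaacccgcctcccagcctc
Per3 (chr4:151044666-151044915, minus strand): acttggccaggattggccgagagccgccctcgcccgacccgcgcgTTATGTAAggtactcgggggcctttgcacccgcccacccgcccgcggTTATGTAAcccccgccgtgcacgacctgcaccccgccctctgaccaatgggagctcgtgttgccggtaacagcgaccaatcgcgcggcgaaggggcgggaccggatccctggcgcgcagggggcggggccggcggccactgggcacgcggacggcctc
Cry1 (chr10:85185055-85185304, minus strand): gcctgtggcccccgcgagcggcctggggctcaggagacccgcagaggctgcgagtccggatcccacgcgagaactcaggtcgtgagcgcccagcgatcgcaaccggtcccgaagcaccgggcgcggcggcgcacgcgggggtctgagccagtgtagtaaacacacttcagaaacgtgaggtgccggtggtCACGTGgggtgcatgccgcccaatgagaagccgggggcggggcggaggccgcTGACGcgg
Cry2 (chr2:92434070-92434319, minus strand): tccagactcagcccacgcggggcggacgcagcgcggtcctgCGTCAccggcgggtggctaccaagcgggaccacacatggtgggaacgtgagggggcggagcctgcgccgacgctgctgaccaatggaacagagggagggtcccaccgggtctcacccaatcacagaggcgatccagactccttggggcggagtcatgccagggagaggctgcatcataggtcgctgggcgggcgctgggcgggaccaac
Nr1d1 (chr11:98775378-98775627, minus strand): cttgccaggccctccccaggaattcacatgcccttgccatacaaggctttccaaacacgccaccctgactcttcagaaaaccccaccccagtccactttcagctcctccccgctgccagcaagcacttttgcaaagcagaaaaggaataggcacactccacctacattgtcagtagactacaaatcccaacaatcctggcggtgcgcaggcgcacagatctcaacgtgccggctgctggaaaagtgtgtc

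Motifs were searched on both strands. The E-box CACGTG was found before Per1 and Cry1, and in 6.02% of 32851 promoters of the same length. Per3 held the D-box TTATGTAA at 2 places, and the D-box (TTATGTAA or TTACGTAA) was in 0.931% of all promoters. The short core of the cyclic AMP response element, TGACG, was present before Per1 (at both start sites), Cry1 and Cry2, against 17.8% of all. The core shared by the ROR and REV-ERB receptors, AGGTCA, which is also part of the estrogen response element, lay before Per1, Nr1d2 and 1 of the 3 start sites of Clock, against 14.0% of all. TGACG lies inside the full cyclic AMP response element TGACGTCA, which was in 1.55% of promoters and before no matched member. The full estrogen response element (GGTCANNNTGACC) was in 0.0639% of promoters and before no matched member either. These matches describe letters in a short window and do not show binding.

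All levels are log2 intensities relative to the 75th percentile of the array, so 0 is that percentile's brightness. A level cannot be compared between probes. All 18 features were well above background on all 12 arrays, and no spot of the 10 probes used for the genes was saturated or marked as an outlier. Over the 19301 genes tested, with 1 probe each, r was 0.9825 to 0.9935 between mice of a group and 0.9184 to 0.9883 across groups. Esr1 was measured in every group and was 0.41 higher in EAAE under saline (adjusted p = 0.00902) and 0.42 higher after E2 (adjusted p = 0.00302, limma in both). The series title names a change in the protein and not a loss of the gene, so Esr1 checks the labels only in part. All 8 uterine markers, among them Esr1, Pgr and Hoxa10, were well above background in every group.

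**Figure D1:**
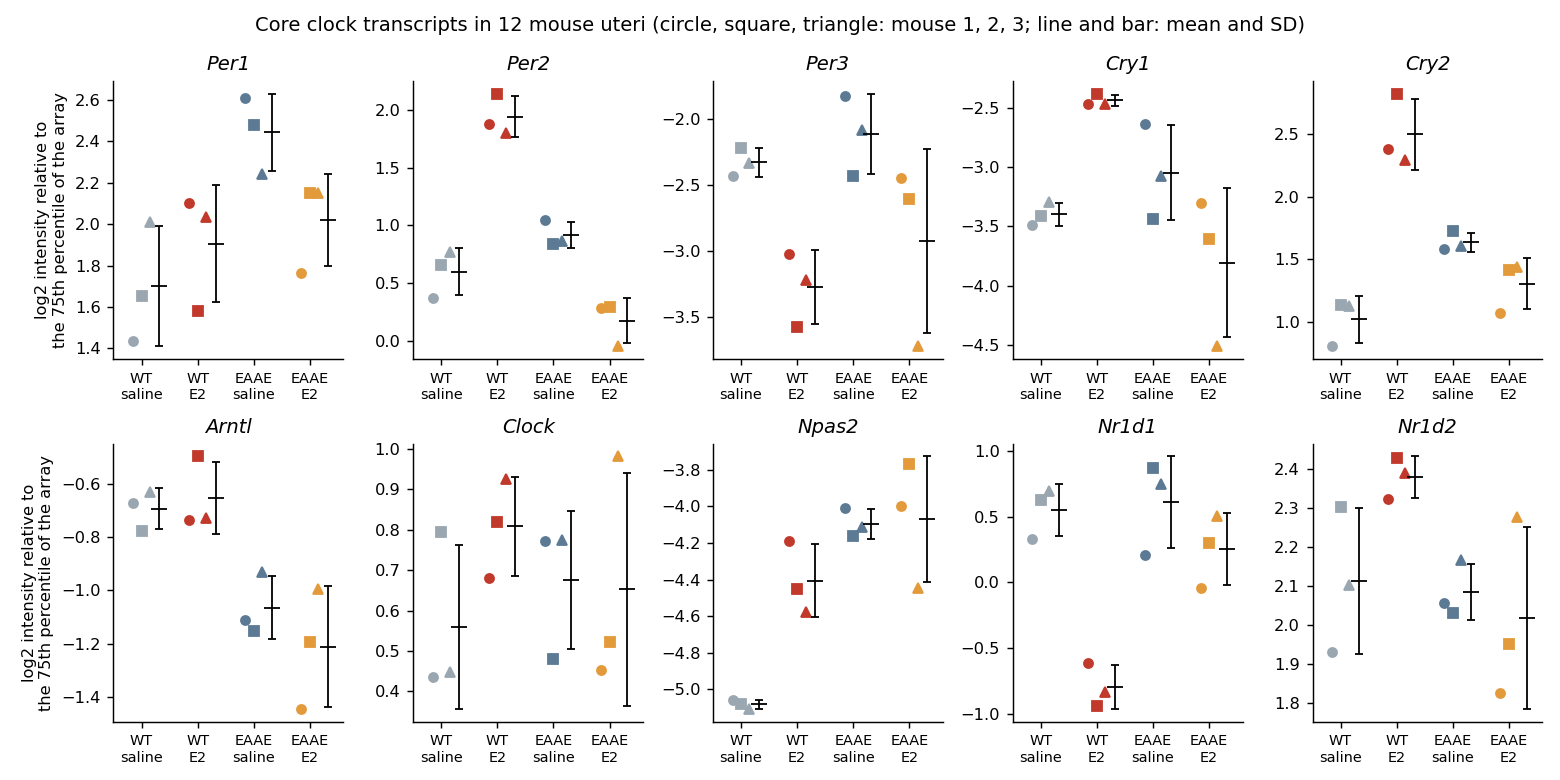
Levels of the 10 core clock transcripts in the 12 uteri, as log2 intensity relative to the 75th percentile of the array, in 1 panel per gene with its own vertical scale. Each symbol is 1 mouse and the line with its bar is the group mean with SD (n = 3); the WT E2 mice stand above the WT saline mice for Per2, Cry1, Cry2 and Npas2 and below them for Per3 and Nr1d1.

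E2 changed 6 of the 10 core clock genes in the WT uterus within 2 h. Per2, Cry2, Cry1 and Npas2 were higher, and Nr1d1 and Per3 were lower (limma, Benjamini-Hochberg adjustment over all genes, adjusted p under 0.05). Among all genes, 49.4% were called in this comparison, 19.6% higher and 29.8% lower. The share of called members is therefore not far from the share of all genes. WT saline and WT E2 mice did not overlap for 7 members, as for 64.5% of all genes. The median difference was 0.258 over the members and -0.146 over all genes. Scaling by the array median moved the latter to -0.013. Such scaling shifts every gene of a comparison by the same amount, so the gap between members and all genes stays.

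Among the repressors, Per2 read 0.37, 0.66 and 0.77 in WT saline mice 1, 2 and 3, and 1.88, 2.14 and 1.80 in WT E2 mice 1, 2 and 3. Every E2 mouse was above every saline mouse. Per2 rose by 1.34 (SE 0.14), which is 2.54-fold (adjusted p = 2.88e-05). Cry2 read 0.80, 1.13 and 1.13 under saline and 2.38, 2.82 and 2.29 after E2. The groups lay far apart, and Cry2 showed the largest rise of the 10 genes, by 1.48 (SE 0.16) or 2.78-fold (adjusted p = 3.42e-05). Cry1 read -3.49, -3.41 and -3.29 under saline and -2.46, -2.38 and -2.47 after E2, again without overlap. It rose by 0.96 (SE 0.28, adjusted p = 0.0157), and with slide as a block and position as a term the value was 0.65 (adjusted p = 0.235).

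The other period genes behaved otherwise. Per3 read -2.43, -2.22 and -2.33 under saline and -3.02, -3.57 and -3.22 after E2, so that all 3 E2 mice were lower. Per3 fell by 0.94 (SE 0.30, adjusted p = 0.0242). Leaving out WT saline 2, WT saline 3, WT E2 2 or WT E2 3 ended the Per3 call, with adjusted p of 0.0677, 0.0572, 0.0900 and 0.0510. Per1 read 1.43, 1.65 and 2.01 under saline and 2.10, 1.58 and 2.03 after E2, and the groups overlapped. The Per1 difference was 0.21 with a 95% confidence interval of -0.21 to 0.63 (adjusted p = 0.39).

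On the activator side Npas2 was called, by its only probe, while the brightest probe of Clock was not. Npas2 stood at -5.06, -5.08 and -5.11 under saline, the tightest group of any member, and at -4.19, -4.45 and -4.58 after E2. The groups did not overlap, and Npas2 rose by 0.68 (SE 0.16) or 1.60-fold (adjusted p = 0.00508). Its probe was dim, with intensities of 44.2 to 122.9, and with the normexp background its rise was 0.25 (adjusted p = 0.122). With slide and position in the fit the rise was 0.48 (adjusted p = 0.0674). Arntl read -0.67, -0.78 and -0.63 under saline and -0.74, -0.50 and -0.73 after E2. Clock read 0.44, 0.79 and 0.45, then 0.68, 0.82 and 0.93. Both genes overlapped between the groups. The difference was 0.039 for Arntl (95% confidence interval -0.23 to 0.31, adjusted p = 0.812) and 0.25 for Clock (-0.10 to 0.60, adjusted p = 0.222).

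The REV-ERB pair did not act as one. Nr1d1 read 0.33, 0.63 and 0.70 under saline and -0.61, -0.94 and -0.83 after E2. All E2 mice were below all saline mice, and Nr1d1 fell by 1.35 (SE 0.19), a 2.54-fold change downward (adjusted p = 0.000257). Nr1d2 read 1.93, 2.30 and 2.10 under saline and 2.32, 2.43 and 2.39 after E2, with the groups apart by a narrow margin. Its difference was 0.27 (95% confidence interval -0.015 to 0.55, adjusted p = 0.107), and it was called only with slide as a fixed block (0.34, adjusted p = 0.0301).

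Other tissue signals moved with the same arrays. All 7 tested adipocyte markers of the 8 on the list fell with E2 in WT, and their summed linear level (relative to the 75th percentile) was 120, 15.4 and 29.3 in WT saline mice and 2.82, 17.5 and 2.00 in WT E2 mice. Lep and Adig were not well above background on any WT E2 array. Endothelial markers fell in 4 of 6 cases and macrophage markers in 2 of 6, and no smooth muscle or epithelial marker was called. Of the 8 uterine markers 5 fell and 1 rose, with sums of 25.7 to 29.8 after E2 against 43.4 to 50.4 under saline. Of 5 oviduct and ciliated cell markers 3 fell. In whole tissue, fewer cells of a type and less RNA per cell cannot be told apart. Without the 3 arrays highest in adipocyte markers (WT saline 1, EAAE saline 1 and EAAE E2 1), Per2 rose by 1.23, Cry2 by 1.37, Cry1 by 0.92 and Npas2 by 0.69, while Nr1d1 fell by 1.46 and Per3 fell by 0.997, and all 6 were called. With the summed adipocyte level as a covariate 5 were called, and Per3 was not (-0.86, adjusted p = 0.133).

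In EAAE uteri E2 gave 1 called member, Per2, and its sign was opposite to that in WT. Per2 read 1.04, 0.84 and 0.86 in EAAE saline mice 1, 2 and 3 and 0.28, 0.29 and -0.048 in EAAE E2 mice 1, 2 and 3. All E2 mice lay below all saline mice. Per2 fell by 0.74 (SE 0.14) or 1.67-fold (adjusted p = 0.0365). Among all genes 1.44% were called, 0.684% higher and 0.751% lower. The call rests on the threshold: it was lost in 16 of 27 alternatives, while the difference stayed between -0.88 and -0.63. Removing any single EAAE array ended it: the adjusted p was 0.105, 0.0764 and 0.0912 for EAAE saline 1 to 3 and 0.0694, 0.0746 and 0.0603 for EAAE E2 1 to 3. So did removing WT saline 2 (0.0590), WT E2 1 (0.0625) or WT E2 3 (0.0530), as did the replicate block (0.0675). All EAAE E2 arrays were at slide position 4, which held no other group. E2 in EAAE and position therefore cannot be told apart without a trend over the positions. With slide and such a trend in the fit Per2 had -0.88 (limma, adjusted p = 0.21).

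The remaining members had differences that did not pass the test. EAAE mice did not overlap between saline and E2 for 4 members, against 18.5% of all genes, and all 4 (Per1, Per2, Per3 and Cry2) were lower after E2. Per1 read 2.61, 2.48 and 2.24 under saline and 1.76, 2.15 and 2.15 after E2 (-0.42, adjusted p = 0.309). Cry2 read 1.58, 1.72 and 1.61, then 1.07, 1.41 and 1.44 (-0.33, 95% confidence interval -0.68 to 0.020). Per3 read -1.82, -2.43 and -2.08, then -2.45, -2.60 and -3.72 (-0.81, 95% confidence interval -1.48 to -0.15). In Per3 and in Cry1 the mouse EAAE E2 3 was by far the lowest. Cry1 read -2.63, -3.44 and -3.07 under saline and -3.30, -3.61 and -4.51 after E2 (-0.76, 95% confidence interval -1.38 to -0.14). Nr1d1 read 0.21, 0.87 and 0.75, then -0.039, 0.30 and 0.50 (-0.36, 95% confidence interval -0.79 to 0.078).

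The activators of EAAE uteri overlapped between treatments. Npas2 read -4.01, -4.16 and -4.12 under saline and -4.00, -3.77 and -4.44 after E2, and its difference of 0.025 had a 95% confidence interval of -0.33 to 0.38. Arntl read -1.11, -1.15 and -0.93, then -1.44, -1.19 and -0.99 (-0.14, interval -0.42 to 0.13). Clock read 0.77, 0.48 and 0.78, then 0.45, 0.52 and 0.98 (-0.023, interval -0.38 to 0.33). Nr1d2, the second REV-ERB gene, read 2.05, 2.03 and 2.16, then 1.82, 1.95 and 2.28 (-0.067, interval -0.35 to 0.22). The members' median difference was -0.343 and that of all genes 0.021. None of the 7 tested adipocyte markers was called here, with sums of 143, 83.2 and 23.9 under saline and 181, 43.4 and 29.5 after E2.

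**Figure D2:**
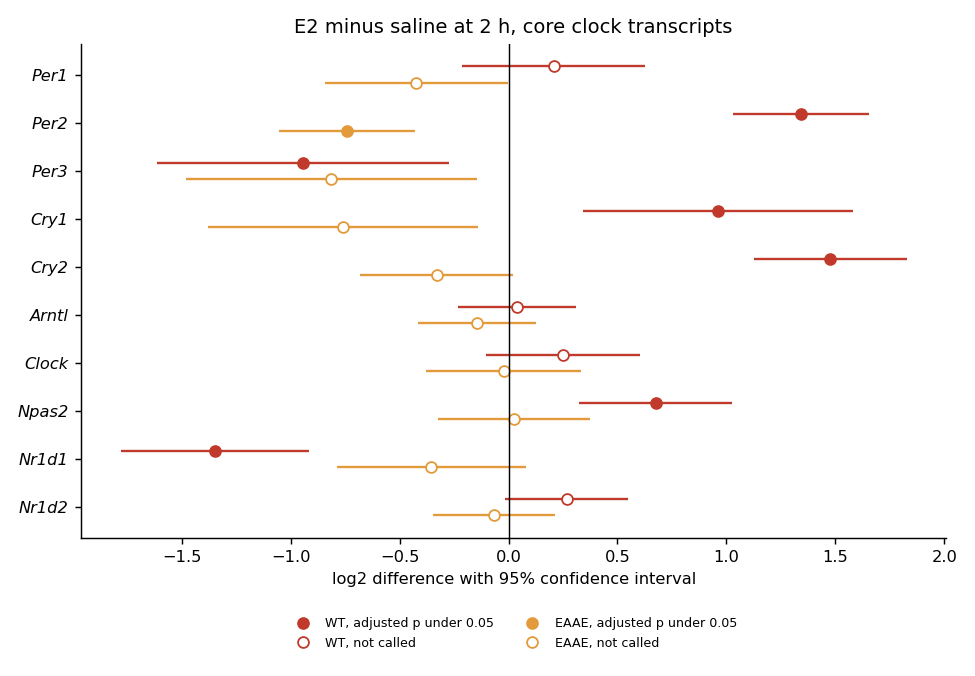
Difference between E2 and saline at 2 h for the 10 core clock genes, in WT and in EAAE uteri (3 mice per group), on the log2 scale with 95% confidence intervals from limma. Filled points passed an adjusted p of 0.05; in WT these are Per2, Per3, Cry1, Cry2, Npas2 and Nr1d1, and in EAAE Per2 alone.

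Whether the genotypes responded differently was tested directly, as the E2 response of EAAE minus that of WT. Since the 5 comparisons share the same 4 groups, they are not independent of each other. The responses of 5 members differed: Per2, Cry2, Cry1 and Npas2 were less raised or were lower in EAAE, and Nr1d1 was less lowered. Among all genes 37.3% differed, 22.2% with the higher and 15% with the lower response in EAAE. Per2 gave the largest difference, -2.08 (SE 0.20, adjusted p = 3.93e-05), from a response of 1.34 in WT and -0.74 in EAAE. Cry2 followed with -1.81 (SE 0.22, adjusted p = 0.000198) and Cry1 with -1.72 (SE 0.395, adjusted p = 0.00695). For these 3 repressor genes the difference was called in all 26 alternatives run. This does not settle position: all EAAE E2 arrays were at slide position 4, which held no other group. With slide in the fit, a trend over the positions left the differences of Npas2 and Nr1d1 unchanged (-0.39 and 0.90). The part of position in the differences of responses was therefore not tested.

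The last pair was less firm. Nr1d1 responded with a difference of 0.99 (SE 0.28, adjusted p = 0.0174), which was not called with slide as a fixed block (0.90, adjusted p = 0.0623), with position added (0.0842) or with the mean of its 3 probes (0.57, adjusted p = 0.135). Npas2 gave -0.65 (SE 0.22, adjusted p = 0.0428), and that call was lost in 17 of 26 alternatives. The Npas2 adjusted p without 1 array ran above 0.05 for 10 of the 12 arrays: 0.0695, 0.0734 and 0.0799 without WT saline 1, 2 or 3, and 0.0933 and 0.0705 without WT E2 1 or 2. It was 0.0870, 0.0575 and 0.0685 without EAAE saline 1, 2 or 3, and 0.0552 and 0.0529 without EAAE E2 1 or 3. With the normexp background the Npas2 difference was -0.21 (adjusted p = 0.388) and with slide as a fixed block -0.39 (adjusted p = 0.143).

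For 5 members a difference between the responses was not shown. Per1 had -0.63 (95% confidence interval -1.22 to -0.037, adjusted p = 0.0888). The Per1 value passed the test without WT saline 3 (-0.79, adjusted p = 0.0439) or WT E2 2 (-0.79, adjusted p = 0.0419). Per3, which read lower after E2 in both genotypes but was called only in WT, had 0.13 with a wide interval of -0.82 to 1.08. Arntl had -0.18 (interval -0.57 to 0.20) and Clock -0.27 (interval -0.77 to 0.23). Nr1d2 had -0.33 (interval -0.73 to 0.065) and passed without EAAE E2 3 (-0.46, adjusted p = 0.0385).

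Before any hormone, 4 members differed between EAAE and WT. Npas2, Per1 and Cry2 were higher in EAAE and Arntl was lower. The WT saline arrays were on slides 1 and 3 at positions 1 and 2. Those of EAAE saline were on slides 1 and 2 at positions 2 and 3. Slide 1 alone held both groups, with 1 array each. Genotype under saline can therefore be told apart from slide and position only in part. Among all genes 29.6% were called, 14.5% higher and 15.1% lower, and 46.9% of all genes had groups that did not overlap, as had 5 of the 10 members. Npas2 read -5.06, -5.08 and -5.11 in WT and -4.01, -4.16 and -4.12 in EAAE, a difference of 0.99 (SE 0.16) or 1.98-fold (adjusted p = 0.00123). All EAAE mice were above all WT mice by a wide margin, and the call was lost only with slide and position in the fit (0.59, adjusted p = 0.307). The size is less firm: the probe was dim, with intensities of 44.2 to 122.9. Over 27 alternatives the Npas2 difference ran from 0.47 to 1.02.

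Per1 and Cry2 were higher by less. Per1 read 1.43, 1.65 and 2.01 in WT and 2.61, 2.48 and 2.24 in EAAE, without overlap, and differed by 0.74 (SE 0.19, adjusted p = 0.0141). Cry2 read 0.80, 1.13 and 1.13 in WT and 1.58, 1.72 and 1.61 in EAAE, also apart, and differed by 0.61 (SE 0.16, adjusted p = 0.0150). Both calls depended on WT saline 1: without it Per1 differed by 0.61 (adjusted p = 0.0574) and Cry2 by 0.51 (adjusted p = 0.0604). Slide as a fixed block left Per1 at 0.69 (adjusted p = 0.0814). With slide and position in the limma fit Per1 had 0.96 (adjusted p = 0.308) and Cry2 0.59 (adjusted p = 0.245), neither called.

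Arntl, the gene for BMAL1, was the member that was lower. It read -0.67, -0.78 and -0.63 in WT saline mice and -1.11, -1.15 and -0.93 in EAAE saline mice. The groups did not overlap, and the difference was -0.37 (SE 0.12, adjusted p = 0.0442). The difference was -0.47 to -0.29 over 27 alternatives. This call was lost in 16 of them, among these slide and position in the limma fit (-0.47, adjusted p = 0.373). Each WT saline array was needed for it (adjusted p of 0.110, 0.0616 and 0.121 when 1, 2 or 3 was removed), and so were EAAE saline 1 (0.107), EAAE saline 2 (0.117), WT E2 1 (0.0566), WT E2 3 (0.0581) and EAAE E2 2 (0.0568).

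For the other 6 members the saline groups were not shown to differ. Per2 read 0.37, 0.66 and 0.77 in WT and 1.04, 0.84 and 0.86 in EAAE, apart but with a difference of 0.32 that was not called (95% confidence interval 0.0075 to 0.63, adjusted p = 0.114). Cry1 had 0.35 (interval -0.27 to 0.97) and Per3 0.22 (interval -0.45 to 0.89). Clock had 0.12 (interval -0.24 to 0.47), Nr1d1 0.057 (interval -0.38 to 0.49) and Nr1d2 -0.029 (interval -0.31 to 0.25). The members' median was 0.268 and that of all genes 0.001.

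Cell type markers differed between the genotypes under saline as well. Of 6 epithelial markers 5 were higher in EAAE, with sums of 186 to 234 against 115 to 130 in WT. The summed macrophage level was 29.1 to 42.8 in EAAE and 97.6 to 155 in WT, with 1 of 6 markers higher and 2 lower. Of the 7 tested adipocyte markers 1 (Cidea) was higher in EAAE. The part of the epithelial and macrophage levels in the clock differences was not tested. Without the 3 arrays highest in adipocyte markers only Npas2 kept its call (0.95, adjusted p = 0.0243). The other 3 kept their sign, with Cry2 at 0.53 (adjusted p = 0.0721), Per1 at 0.53 (0.115) and Arntl at -0.34 (0.138). With the adipocyte level as a covariate Npas2 (0.96), Per1 (0.81) and Cry2 (0.62) kept their calls, and Arntl did not (-0.36, adjusted p = 0.0622).

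After E2 the genotypes differed in 6 members. Per2, Cry1, Cry2, Arntl and Nr1d2 were lower in EAAE and Nr1d1 was higher. Among all genes 58% were called, 33.5% higher and 24.5% lower, and groups did not overlap for 6 members and for 64.4% of all genes. Per2 stood at 1.94 ± 0.18 in WT E2 and 0.18 ± 0.19 in EAAE E2 (mean ± SD, n = 3 each), the widest gap, with a difference of -1.77 (SE 0.14) or 3.40-fold. Cry1 stood at -2.44 ± 0.049 and -3.81 ± 0.63, a difference of -1.37 (SE 0.28), and the spread in EAAE came from EAAE E2 3. Cry2 stood at 2.50 ± 0.28 and 1.31 ± 0.21, a difference of -1.19 (SE 0.16). No mouse of 1 group reached the other group for these 3 repressor genes.

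Nr1d1 was at -0.80 ± 0.17 in WT E2 and 0.25 ± 0.27 in EAAE E2, a difference of 1.05 (SE 0.19, adjusted p = 0.000928). Arntl was at -0.66 ± 0.14 and -1.21 ± 0.23, a difference of -0.56 (SE 0.12, adjusted p = 0.0028). The lower Arntl level of EAAE was thus seen in both treatments, and the mice did not overlap in either. Nr1d2 was at 2.38 ± 0.053 and 2.02 ± 0.23, a difference of -0.36 (SE 0.13, adjusted p = 0.0311), and the highest EAAE mouse (2.28) lay just below the lowest WT mouse (2.32).

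Some of these calls had limits. The Nr1d2 call was lost in 10 of 27 alternatives, by array without WT E2 2 (adjusted p = 0.0866), WT E2 3 (0.0717), EAAE E2 1 (0.112) or EAAE E2 2 (0.0872). Slide position 4 held the 3 arrays of EAAE E2 and no other group, so genotype after E2 and position cannot be told apart without a trend over the positions. With slide and such a trend in the fit Per2, Cry2 and Arntl were still called, while Cry1 was not (-1.71, adjusted p = 0.0616), nor Nr1d1 (1.02, adjusted p = 0.125) nor Nr1d2 (-0.21, adjusted p = 0.498). Within each of the 3 slides all 6 called members kept their sign, as they must when groups do not overlap. This agreement therefore says nothing about position. All 7 tested adipocyte markers were higher in EAAE after E2, as were 5 of 6 epithelial markers (median 0.962), and 4 of 6 smooth muscle markers were lower (median -0.694). The part of the epithelial and smooth muscle levels in the clock differences was not tested. Without the 3 arrays highest in adipocyte markers Per2 differed by -1.82, Cry1 by -1.62, Cry2 by -1.07, Arntl by -0.44 and Nr1d1 by 1.20, all called, and Nr1d2 by -0.27 (adjusted p = 0.112). With the adipocyte level as a covariate Per2, Cry1, Cry2 and Nr1d1 kept their calls, and Arntl (-0.49, adjusted p = 0.0548) and Nr1d2 (-0.12, adjusted p = 0.575) did not.

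The other members after E2 were close to or between the groups. Npas2 stood at -4.41 ± 0.20 in WT and -4.07 ± 0.34 in EAAE (difference 0.34, 95% confidence interval -0.015 to 0.69). It was called without WT E2 1 (0.44, adjusted p = 0.0491) or EAAE E2 3 (0.52, adjusted p = 0.00538). Per3 had 0.35 (interval -0.32 to 1.02) and was called without EAAE E2 3 (0.75, adjusted p = 0.00972). Per1 had 0.11 (interval -0.31 to 0.53) and Clock -0.16 (interval -0.51 to 0.20). The members' median was -0.259 and that of all genes 0.109.

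**Figure D3:**
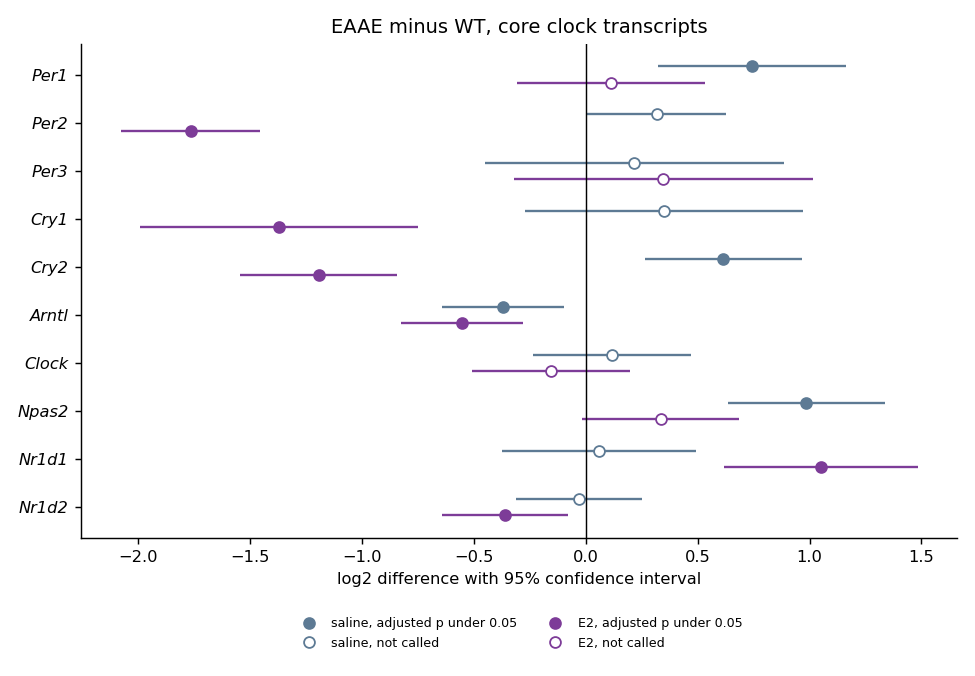
Difference between EAAE and WT uteri for the 10 core clock genes, under saline and 2 h after E2 (3 mice per group), on the log2 scale with 95% confidence intervals from limma. Filled points passed an adjusted p of 0.05; Npas2, Per1 and Cry2 are to the right under saline, and Per2, Cry1 and Cry2 are far to the left after E2.

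Read over the 4 groups, each member has its own order. Per2 and Cry2 were highest in WT E2, next in EAAE saline, and lower in the other 2 groups. For Per2 EAAE E2 was lowest and for Cry2 WT saline was. Cry1 was highest in WT E2, and its 3 other groups overlapped in part. Npas2 was lowest in WT saline, apart from all others, and overlapped between EAAE saline and EAAE E2. Nr1d1 was lowest in WT E2, and its other groups overlapped. Arntl was lower in both EAAE groups than in both WT groups, with overlap within a genotype. Per3 was highest in EAAE saline, which overlapped with WT saline, and its E2 groups overlapped with each other. Per1 was highest in EAAE saline and Nr1d2 in WT E2, each apart from its other groups, and Clock overlapped in every pair of groups.

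The spread within groups also differed. The pooled SD of mice within a group was largest for Per3 (0.41) and Cry1 (0.38) and smallest for Arntl (0.15) and Nr1d2 (0.16), against a median of 0.17 over all tested genes. Per3 and Cry1 therefore needed larger differences to be called.

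Probes of the same gene were compared for the 5 members with several. The probes used lie, in the mm7 coordinates of the array files, at chr11:69190950-69191009 (Per1), chr1:91323914-91323973 (Per2), chr4:149994689-149994748 (Per3), chr10:84685114-84685173 (Cry1) and chr2:92254922-92254981 (Cry2). Those of the activators lie at chr7:109229489-109229548 (Arntl), chr5:76144675-76144734 (Clock) and chr1:39603477-39603536 (Npas2), and those of the REV-ERB genes at chr11:98878251-98878753 (Nr1d1) and chr14:16018965-16019024 (Nr1d2). Their place in exons or untranslated regions was not analysed here.

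The second Cry2 probe (chr2:92264642-92266907) rose by 1.07 with E2 in WT (adjusted p = 4.17e-05, adjusted over all tested probes) and responded differently in EAAE by -1.43. The second Cry1 probe (chr10:84673350-84673409) rose by 0.86 (adjusted p = 0.00705) and differed by -1.48, and it was also 0.85 higher in EAAE under saline (adjusted p = 0.0144), where the brighter probe was not called. Cry1 and Cry2 were thus raised by both of their probes. The dimmer Per2 probe (chr1:91347406-91347465) gave 0.80 in WT (adjusted p = 0.0671) and a difference of responses of -1.47 (adjusted p = 0.0311). It gave -0.67 in EAAE (adjusted p = 0.343), so the fall of Per2 in EAAE was called by 1 of its 2 probes.

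Nr1d1 and Clock had probes that disagreed. A second Nr1d1 probe (chr11:98881057-98881116) fell by 0.90 in WT (adjusted p = 0.00614), but another (chr11:98884160-98884219) gave 0.083 (adjusted p = 0.87) with a wide 95% confidence interval of -0.75 to 0.91. For Clock, 1 of the 3 dimmer probes (chr5:76145071-76145130) rose by 0.35 in WT (adjusted p = 0.00975) and was -0.32 in EAAE against WT after E2 (adjusted p = 0.0123). Another (chr5:76167876-76167935) was 0.33 higher in EAAE under saline (adjusted p = 0.0379) and 0.41 higher after E2 (adjusted p = 0.00624). The dimmest (chr5:76186708-76186767) was 0.42 higher in EAAE under saline (adjusted p = 0.0468). No direction can be given for Clock as a gene after E2.

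**Figure D4:**
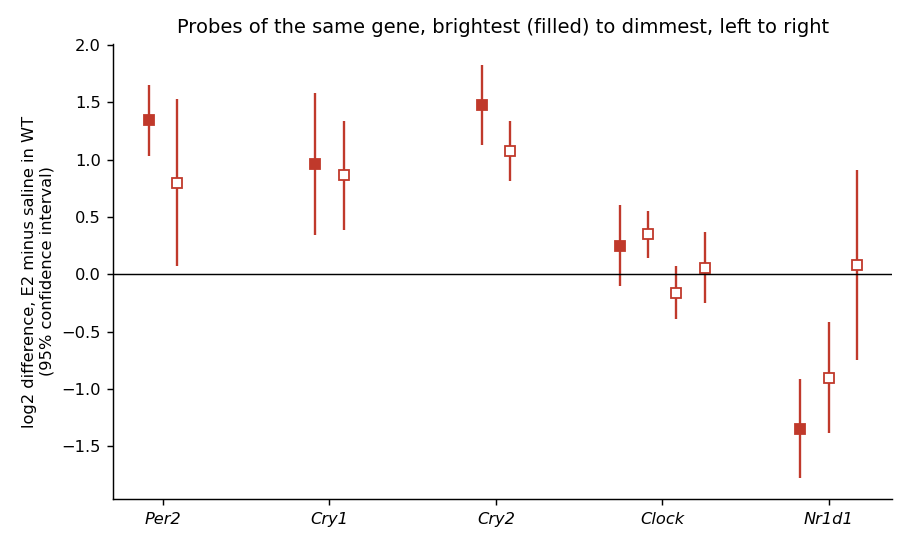
Difference between E2 and saline in WT uteri (3 mice per group) for every probe of the 5 members with several, on the log2 scale with 95% confidence intervals from limma. Filled squares are the probes used for the gene; both probes of Cry1 and Cry2 lie above 0, and 1 Nr1d1 probe lies at 0.083 with a wide interval.

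Around the core, 26 other clock genes were examined: 17 that modify the loop (kinases, ubiquitin ligase parts, ROR receptors and others) and 9 on its output side. All 26 were tested. With E2 in WT 17 were called, 10 higher and 7 lower, against 49.4% of all genes, and the median was 0.082. In EAAE 5 were called, 1 higher and 4 lower, against 1.44% of all genes. The responses differed for 15 of the 26, 3 with the higher and 12 with the lower response in EAAE, against 37.3% of all genes.

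Among the modifiers in WT, Sik1, a kinase that damps the resetting of the clock by cyclic AMP signals, rose most, by 2.91 (SE 0.12, adjusted p = 9.36e-08). Rorb, a ROR receptor gene, fell by 2.54. The brightest probe of Arntl2, a relative of Arntl, was not well above background on any WT E2 array. Only a bound can thus be given: it was at least 1.91-fold lower after E2. The adjusted p of limma, 2.16e-05, belongs to the measured signals and not to the bound. The bound sets the WT saline mean against the mean over the WT E2 arrays of the lowest signal well above background, or of the probe's own where that was higher. Casein kinase 1 alpha (Csnk1a1), of a kinase family that phosphorylates PER proteins, rose by 0.99. Tipin, a partner of Timeless, rose by 0.69. Ciart, an E-box repressor also called Chrono, rose by 0.67 (adjusted p = 0.0297). Removing WT saline 1 (adjusted p = 0.108), WT E2 1 (0.0852) or WT E2 3 (0.0942) ended the Ciart call, and with the adipocyte level as a covariate it was 0.18 (adjusted p = 0.524).

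Among the outputs, Nfil3, a D-box repressor, rose by 2.71 (SE 0.28) and Bhlhe40, an E-box repressor, by 2.09 (SE 0.09, adjusted p = 1.17e-07). Bhlhe40 read 0.35, 0.28 and 0.47 under saline and 2.53, 2.46 and 2.37 after E2, with no overlap. Noct, which encodes nocturnin, rose by 1.90. Bhlhe41, a relative of Bhlhe40, fell by 1.40, and the D-box activators Dbp and Hlf fell by 1.29 and 0.86.

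In EAAE, Bhlhe40 and Sik1 again went against their direction in WT. Bhlhe40 read -0.056, 0.024 and -0.047 under saline and -0.74, -0.96 and -0.999 after E2, and it fell by 0.87 (adjusted p = 0.00282). Sik1 read -1.90, -2.06 and -1.98, then -2.59, -3.03 and -2.67, and fell by 0.79 (adjusted p = 0.0178). In both genes all E2 mice were lower. The Sik1 call was lost without EAAE saline 1 (adjusted p = 0.0626), 2 (0.0525) or 3 (0.0533). Usp2, a deubiquitinase, read 0.59, 0.70 and 0.68, then -0.78, -0.41 and -0.23, and fell by 1.13 (adjusted p = 0.00633), while it differed by 0.030 in WT. Rorb rose by 0.87 (adjusted p = 0.0486) and Rora fell by 0.45 (adjusted p = 0.0477). Rorb lost its call in 18 alternatives and Rora in 20. Among these are each array left out except WT E2 2 and EAAE E2 3 for Rorb (adjusted p = 0.0534 to 0.134), and every array for Rora (0.0583 to 0.129). Leaving out only the groups of the other genotype from the fit left none of the 5 called. Without the 3 arrays highest in adipocyte markers only Usp2 kept its call, while the values stayed close to those of the full fit. Bhlhe40 had -0.97 (adjusted p = 0.0542), Sik1 -0.83 (0.124), Rora -0.45 (0.253) and Rorb 0.78 (0.260). With slide and position in the fit none of the 5 was called either. Bhlhe40 then had -0.91 (adjusted p = 0.146), Sik1 -0.83 (0.21), Usp2 -1.21 (0.0856), Rora -0.48 (0.349) and Rorb 0.95 (0.345).

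**Figure D5:**
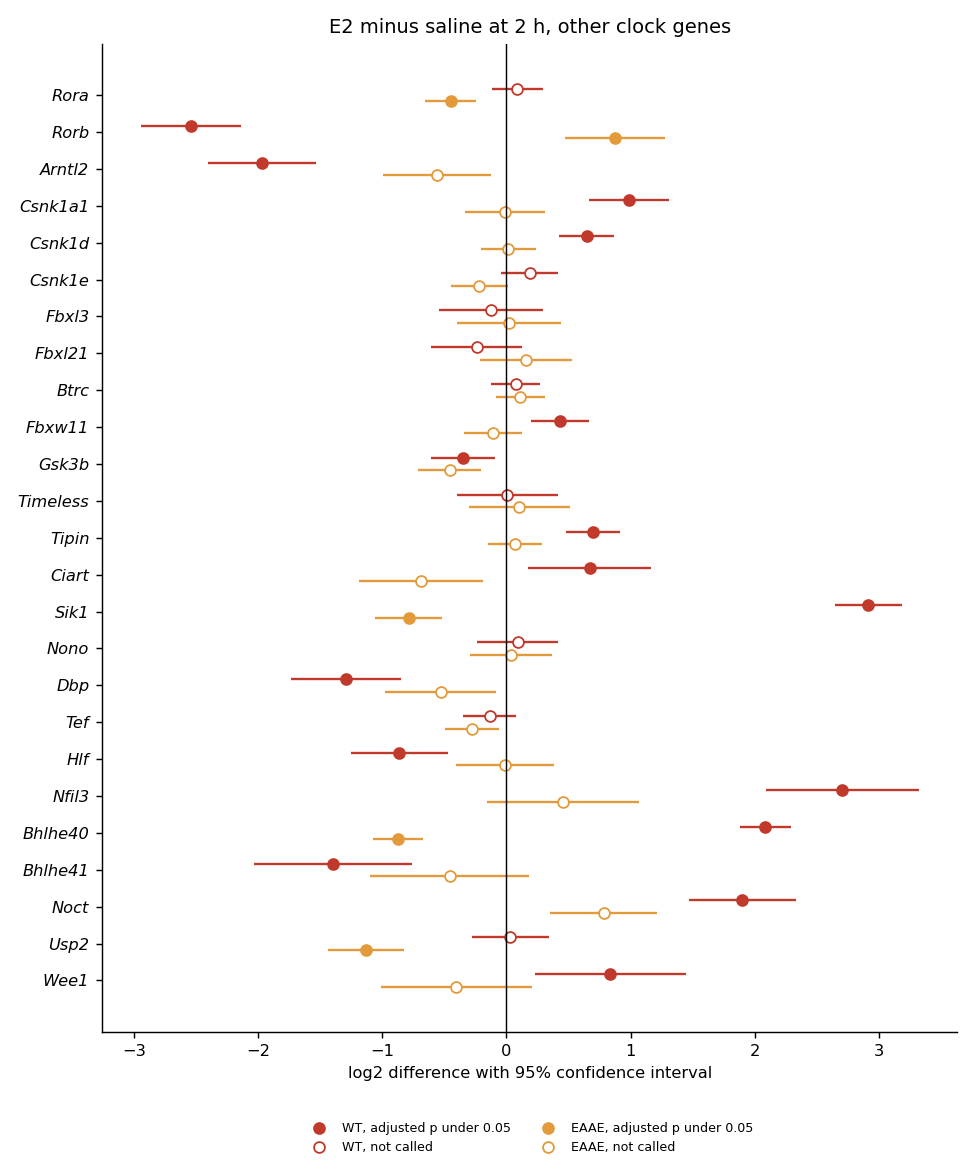
Difference between E2 and saline at 2 h for 25 of the 26 other clock genes, in WT and in EAAE uteri (3 mice per group), on the log2 scale with 95% confidence intervals from limma. Filled points passed an adjusted p of 0.05; Sik1, Bhlhe40 and Rorb have filled points on both sides of 0, and the WT point of Arntl2 rests on E2 arrays where its probe was not well above background.

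The direct test of the responses gave -3.70 for Sik1 (SE 0.17, adjusted p = 7.3e-07), 3.41 for Rorb and -2.96 for Bhlhe40. Nfil3 differed by -2.25 and Ciart by -1.36. Arntl2 was called too, but its size is not given because its WT E2 level is only a bound. Arntl2 was not called with the normexp background (adjusted p = 0.0845) or with the mean of its tested probes (0.124). Wee1, a mitotic kinase gene under clock control, differed by -1.24, Usp2 by -1.16, Noct by -1.12, Csnk1a1 by -0.999, Hlf by 0.85 and Csnk1d by -0.63. Dbp was not called (0.76, adjusted p = 0.0580), and passed without WT saline 1 (0.0412), WT E2 1 (0.0300) or EAAE saline 2 (0.0342). The Wee1 call (adjusted p = 0.0291) was lost without WT saline 1 or 3, WT E2 2 or 3, EAAE saline 1 or 3, or EAAE E2 1 (adjusted p = 0.0535 to 0.0631). The Hlf call was lost without WT saline 3 (0.0526) or WT E2 2 (0.0558).

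Under saline 7 of the 26 differed between genotypes, 4 higher and 3 lower in EAAE, against 29.6% of all genes. Fbxl21, an F-box gene whose protein acts on cryptochromes, was 1.46 higher and Sik1 1.38 higher. Timeless had -0.59 and Tipin -0.48. Hlf was 0.55 higher and Bhlhe40 had -0.40 (adjusted p = 0.00896). Timeless lost its call when WT saline 1 or 2 or EAAE saline 1 or 2 was removed (adjusted p = 0.0751 to 0.113). That of Hlf was lost without WT saline 1 or 2, WT E2 1 or any EAAE saline array (0.0519 to 0.137). With slide as a fixed block Bhlhe40 (-0.41, adjusted p = 0.0527), Timeless (-0.65, 0.0982) and Hlf (0.58, 0.0998) were not called. With position added Bhlhe40 was -0.49 (adjusted p = 0.320), Fbxl21 0.83 (0.185) and Tipin -0.60 (0.199). Timeless was then -0.28 (0.778) and Hlf 0.56 (0.527). Of the 7 only Sik1 kept its call there.

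After E2 21 of the 26 differed, 7 higher and 14 lower in EAAE, against 58% of all genes, with a median of -0.372. Bhlhe40 differed most, by -3.35, then Rorb by 3.25 and Sik1 by -2.32. Fbxl21 differed by 1.86, Nfil3 by -1.75, Hlf by 1.41, Ciart by -1.14, Tipin by -1.10 and Usp2 by -1.07. Arntl2 was at least 1.45-fold higher in EAAE, by the same kind of bound. Its adjusted p (limma, 6.04e-05) again belongs to the measured signals. Wee1 differed by -0.93 and Noct by -0.62. With the adipocyte level as a covariate Ciart was -0.53 (adjusted p = 0.0711) and Wee1 -0.96 (0.0914), and with slide and position in the fit Ciart was -1.10 (0.155) and Nfil3 -1.36 (0.0726), none of them called. Dbp differed by 0.54 (adjusted p = 0.0401), a call that was lost in 12 alternatives, by array without WT saline 2 (0.0524), WT E2 2 (0.159), WT E2 3 (0.0622), EAAE saline 3 (0.0524), EAAE E2 2 (0.0986) or EAAE E2 3 (0.100). The Noct call was lost without WT E2 2 (0.0786) or EAAE E2 1 (0.0673).

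Finally, the genes whose levels followed each member most closely over the 12 arrays were sought among 19300 other genes. The Pearson r describes these arrays, which share groups and scaling. Per2 was followed most closely by Ggta1 (r = 0.9824), Cry1 by Alyref2 (0.9870), Cry2 by Ranbp2 (0.9775) and Nr1d1 by A930033H14Rik (0.9817). Npas2 had Ovol2 (0.9589), Arntl had Mylk (0.9515) and Per3 had Irak1bp1 (0.9497). Per1, Clock and Nr1d2 had the least close first neighbours, Gtf2a1 (0.8951), Zfp180 (0.9191) and Zfp84 (0.9246). The next 2 neighbours were 1700001P01Rik and Dynll1 for Per2, LOC627520 and Net1 for Cry1, Sh3pxd2a and Aff1 for Cry2, and Ivns1abp and Pdxk for Npas2. No member was among the 3 nearest of another. Within the 10 genes, Per2 followed Cry1 (r = 0.902) and Cry2 (r = 0.883) most closely, and ran against Nr1d1 (r = -0.753). Among all 19300 genes Cry1 was only 372nd and Cry2 645th nearest to Per2. In turn Per2 was 43rd nearest to Cry1 and 565th to Cry2, so many genes outside the clock followed these members as closely.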

How the data were processed

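Scanned images were read by the authors with Agilent Feature Extraction, per the file headers in version 9.5.3.1 and per the submitters' processing notes in 9.5. What was deposited is intensity on a linear scale, background-subtracted and detrended within each array and not scaled between arrays, and the deposited table of the series held the same values. Per the labels, 500 ng of total RNA per uterus went into Cy3-labelled cRNA. Each array had 43379 spots that were not controls, 63.98 to 74.03% of them well above background. The number of arrays limits the precision.

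Control spots and outlier flags (56 to 117 spots per array) were left out. The log2 intensity minus the 75th percentile of the array was averaged over spots of a probe. A probe was tested if, in at least 1 group, every array had it well above background, and if each group had at least 2 measured arrays, and the probe with the highest mean stood for its gene. All 12 arrays entered limma 3.58.1 (lmFit and eBayes, R 4.3.3), with 2-sided tests of 5 comparisons, Benjamini-Hochberg adjustment over 19301 genes and a threshold of 0.05. The fit was tested on simulated data. Alternatives covered scaling, background, filter, probe choice, slide, position, replicate number, variance trend, the samples in the fit and each array left out.

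The members and lists were chosen with earlier results of these data known. Named genes were all members, up to 6 called genes of largest change per list and comparison with Nfil3, Dbp and Bhlhe40, the 3 nearest neighbours of each member, and Esr1. Values of 1 other clock gene are not reported here; it stays in the counts. Replicate numbers did not pair the mice: deviations of same-numbered arrays correlated with r of -0.2818 to 0.2744. The labels say 3 mice each, 1 per array. Positions of the probes are those of the files (mm7).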

Additional observations from a re-analysis of the deposited data

Results flagged for a closer look

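For 5 members the E2 response differed between the genotypes by the direct test of that difference (limma, 3 mice per group), with the EAAE response minus the WT response given on the log2 scale. Per2 differed by -2.08 (adjusted p = 3.93e-05), Cry2 by -1.81 (adjusted p = 0.000198) and Cry1 by -1.72 (adjusted p = 0.00695). Nr1d1 differed by 0.99 (adjusted p = 0.0174) and Npas2 by -0.65 (adjusted p = 0.0428). The Npas2 value was lost under most alternatives, as given with its result.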

How the results depend on the processing

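Over 27 alternatives (26 for the difference of responses), the 10 members gave 1340 values. Of the alternatives, 2 were chosen after seeing the data (both on adipocyte markers). Of the values, 1250 stayed as they were, called or not called, so this number includes values that had no call to lose. A call was lost in 81 values and gained in 9. No called value changed sign, and 35 uncalled ones did. Counts of called genes that left the range within 1.5 times were as follows, and the cause was not tested. For E2 in EAAE, the 1 called member became 0 with no filter on dim probes, with the mean of the probes, with slide as a block, with slide and position, with the replicate block, with the arrays of the 2 groups alone and without the 3 arrays high in adipocyte markers. Leaving out 1 array gave 0 to 1. The 5 other clock genes became 3 with no filter, with slide as a block and with the replicate block, 0 with slide and position and with the 2 groups alone, and 1 without the 3 arrays; leaving out 1 array gave 2 to 5. For the difference of responses, 5 members became 3 with slide as a block, with or without position. Under saline, 4 members became 2 with slide as a block, 0 with position added and 1 without the 3 arrays; leaving out 1 array gave 1 to 4. The 7 other clock genes became 4 with slide as a block and 1 with position added. After E2, 6 members became 3 and 21 other genes became 11 with slide and position. Nono, after E2, turned from -0.056 to 0.41 (adjusted p = 0.00916) with the mean of its probes. Replicate numbers did not pair the mice, and the replicate block left the members' other counts at 6, 5, 4 and 6. Signal over background limits Arntl2, whose brightest probe was not well above background on any WT E2 array.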
